A study of Homo sapiens with 6 samples.

Results

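Cytochrome P450s (CYP), UDP-glucuronosyltransferases (UGT), sulfotransferases (SULT), aldehyde dehydrogenases (ALDH) and carboxylester hydrolases were examined in SW480 cells, an established human colon carcinoma line, after knockdown of gankyrin. The genes were those whose symbol starts with CYP and a digit (CYP51A1 left out), UGT1, UGT2, SULT or ALDH (ALDH1L2 and ALDH18A1 left out), with AADAC, CES1, CES2 and CES3. Pseudogenes were left out, and each gene was read on its brightest probe set that the annotation pairs with 1 gene. Of 92 such genes on the array, 5 were pseudogenes and 32 had a mean log2 signal over the 6 arrays at or below 3.6. The remaining 55 genes are described here, out of 14199 genes tested. They comprise 29 CYP genes, 3 UGT, 5 SULT and 15 ALDH symbols, AADAC, CES1 and CES2. One of the 15 ALDH symbols, ALDH1L1-AS2, is a long noncoding antisense RNA and encodes no dehydrogenase. Just inside the limit lay CYP2E1, CYP46A1 and CYP4B1 at mean log2 signals of 3.61, 3.66 and 3.66, and just outside lay CYP4F2, CYP17A1 and CYP8B1 at 3.38, 3.32 and 3.30.

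RNA was taken from cells given a non-targeting shRNA (control, n = 3 arrays) or an shRNA directed at gankyrin (knockdown, n = 3 arrays), both for 4 days, and hybridised to 1 array per sample. Gankyrin, encoded by PSMD10, is an ankyrin-repeat chaperone of proteasome assembly. The labels describe no rescue or uninfected group and do not say whether replicates came from separate cultures; the spread behind each p-value is that of these 6 arrays and may be technical. The design text names another target, NFIL3, in a single sentence. PSMD10 was at 10.19, 10.23 and 10.15 in control and 6.58, 6.47 and 6.30 in knockdown replicates 1 to 3, a 13.4-fold fall. NFIL3 was at 9.21, 9.32 and 9.47 in control and 9.12, 9.06 and 9.03 in knockdown arrays, a smaller fall (log2 fold change -0.26 ± 0.07 SE, limma adjusted p = 0.0281). Both genes were lower on every knockdown array than on every control array.

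These enzymes make fat-soluble drugs, pollutants, hormones and lipids easier to excrete. CYPs insert oxygen with electrons from NADPH, carboxylesterases and AADAC split esters and amides, and ALDHs oxidise reactive aldehydes to acids. UGTs and SULTs then attach glucuronic acid or sulfate, and transporters carry the products out of the cell. Several family members instead make or break down bile acids, vitamin D, retinoic acid and steroid hormones. The intestinal epithelium is, with the liver, a main site of this metabolism.

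Array medians lay between 4.20 and 4.25 on the log2 scale. Control replicate 3 stood apart from the other arrays: it lay at least 0.5 from the mean of the other control arrays for 5.07% of all genes tested and for 2 of the 55 genes described here, UGT1A6 and ALDH1B1. Its 3′ minus 5′ difference, which rises as RNA is degraded or copied incompletely, was 1.82 on the array's own ACTB probe sets and 0.56 on those for GAPDH, against 0.43 to 0.53 and -0.11 to 0.00 on the other 5 arrays. Results are therefore also given without control replicate 3. The epithelial markers EPCAM, KRT18 and LGALS4 had mean log2 signals of 12.20, 13.02 and 12.05, whereas the intestinal factor CDX2 was at 4.16. Of the 8 epithelial markers, VIL1 rose by 0.82 (adjusted p = 0.000233), CDH1 fell by 0.64 (0.000863) and KRT19 fell by 0.46 (0.00111). The 95th percentile of 107 probe sets for olfactory receptors, which serve as a low end of the scale, was 4.48. Some defining markers of other cells were low (ALB at 2.47, PTPRC at 2.65, CDH5 at 2.51), but 5 of 8 hepatocyte, 3 of 6 leukocyte and 2 of 6 fibroblast markers lay above that level, SERPINA1 at 12.81 and LYZ at 12.29 among them. None of the hepatocyte, fibroblast, leukocyte or endothelial marker genes tested passed in either direction, beside 22.5% of all genes called. Markers below the limit of 3.6 were not tested, which left PECAM1 alone for endothelium. For the 8 hepatocyte markers, mean signals per array were 5.33 to 5.40 in control and 5.40 to 5.49 in knockdown. Of the 8 enterocyte markers CA4 rose, and their mean per array was 3.45 to 3.49 in control and 3.574 to 3.599 in knockdown. The part of these differences in the results was not tested.

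Expression of the 55 genes changed in both directions. With limma and a Benjamini-Hochberg adjusted p under 0.05 over all 14199 genes, 8 rose and 6 fell, or 25.5% of the 55, beside 22.5% of all genes. Rises made up 14.5% (8.13% of all genes) and falls 10.9% (14.3% of all genes). A share this close to the background is not a result about these families. The median log2 fold change was 0.05, against -0.02 for all genes, and the median absolute log2 fold change was 0.14 for both. Knockdown and control values did not overlap for 20 of the 55 genes, 11 higher and 9 lower, or 36.4% beside 40.3% of all genes (15.7% higher and 24.6% lower). Without control replicate 3 the counts were 12 rises and 7 falls, against 12.7% and 16.6% of all genes, and all 14 original calls were kept. Without knockdown replicate 1 or 2, 5 genes rose, beside 4.44% and 4.32% of all genes. Centring each array on the median of the tested genes also gave 12 rises, with 6 falls, beside 16.0% and 10.4% of all genes. That scaling moved the median of all genes from -0.02 to 0.08 and the share of rises among all called genes from 36.2% to 60.7%, and it reversed none of the 14 calls. With 3 arrays a group, the smallest p of a two-sided exact permutation test is 0.1, which was reached for the 20 genes whose groups did not overlap.

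**Figure D1:**
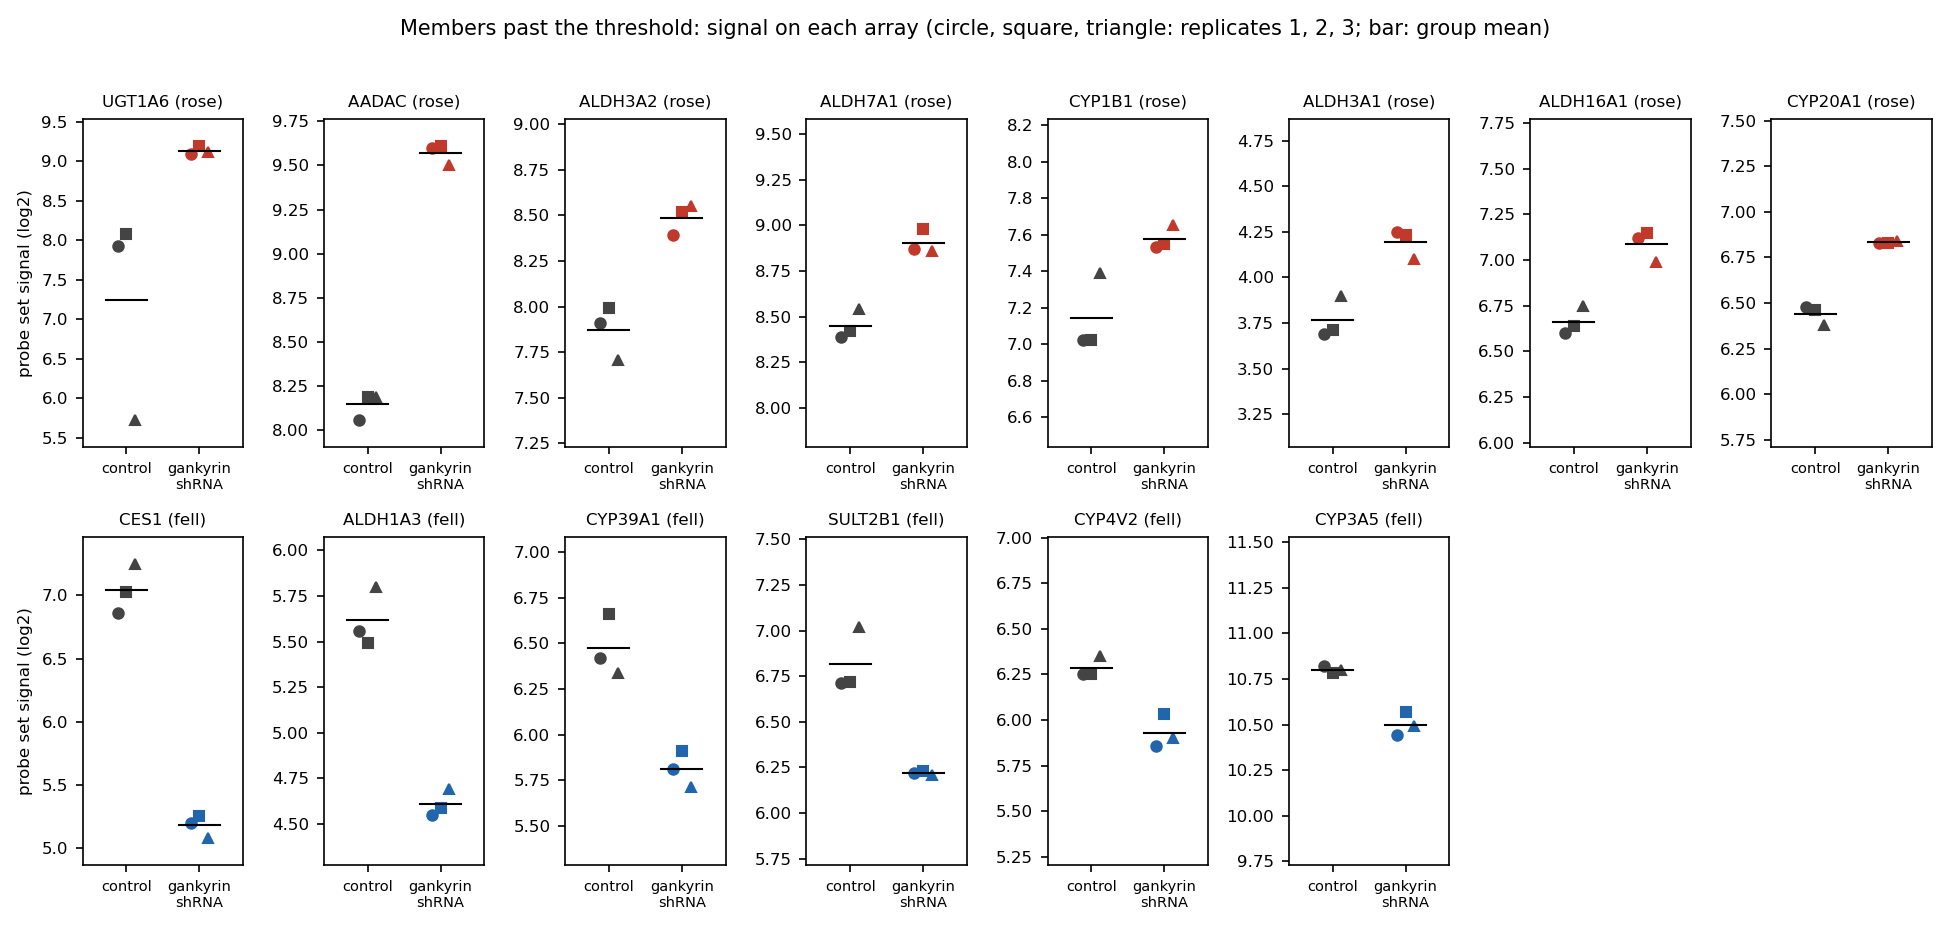
Log2 probe set signal (y axis, each panel with its own range of at least 1.8) on each control and gankyrin shRNA array for the 8 genes that rose (upper row) and the 6 that fell (lower row), with circles, squares and triangles for replicates 1, 2 and 3 and a bar for the group mean. The groups do not overlap in any panel, and the UGT1A6 panel holds 1 control array, replicate 3, at 5.73 with the other control arrays at 7.93 and 8.08.

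**Figure D2:**
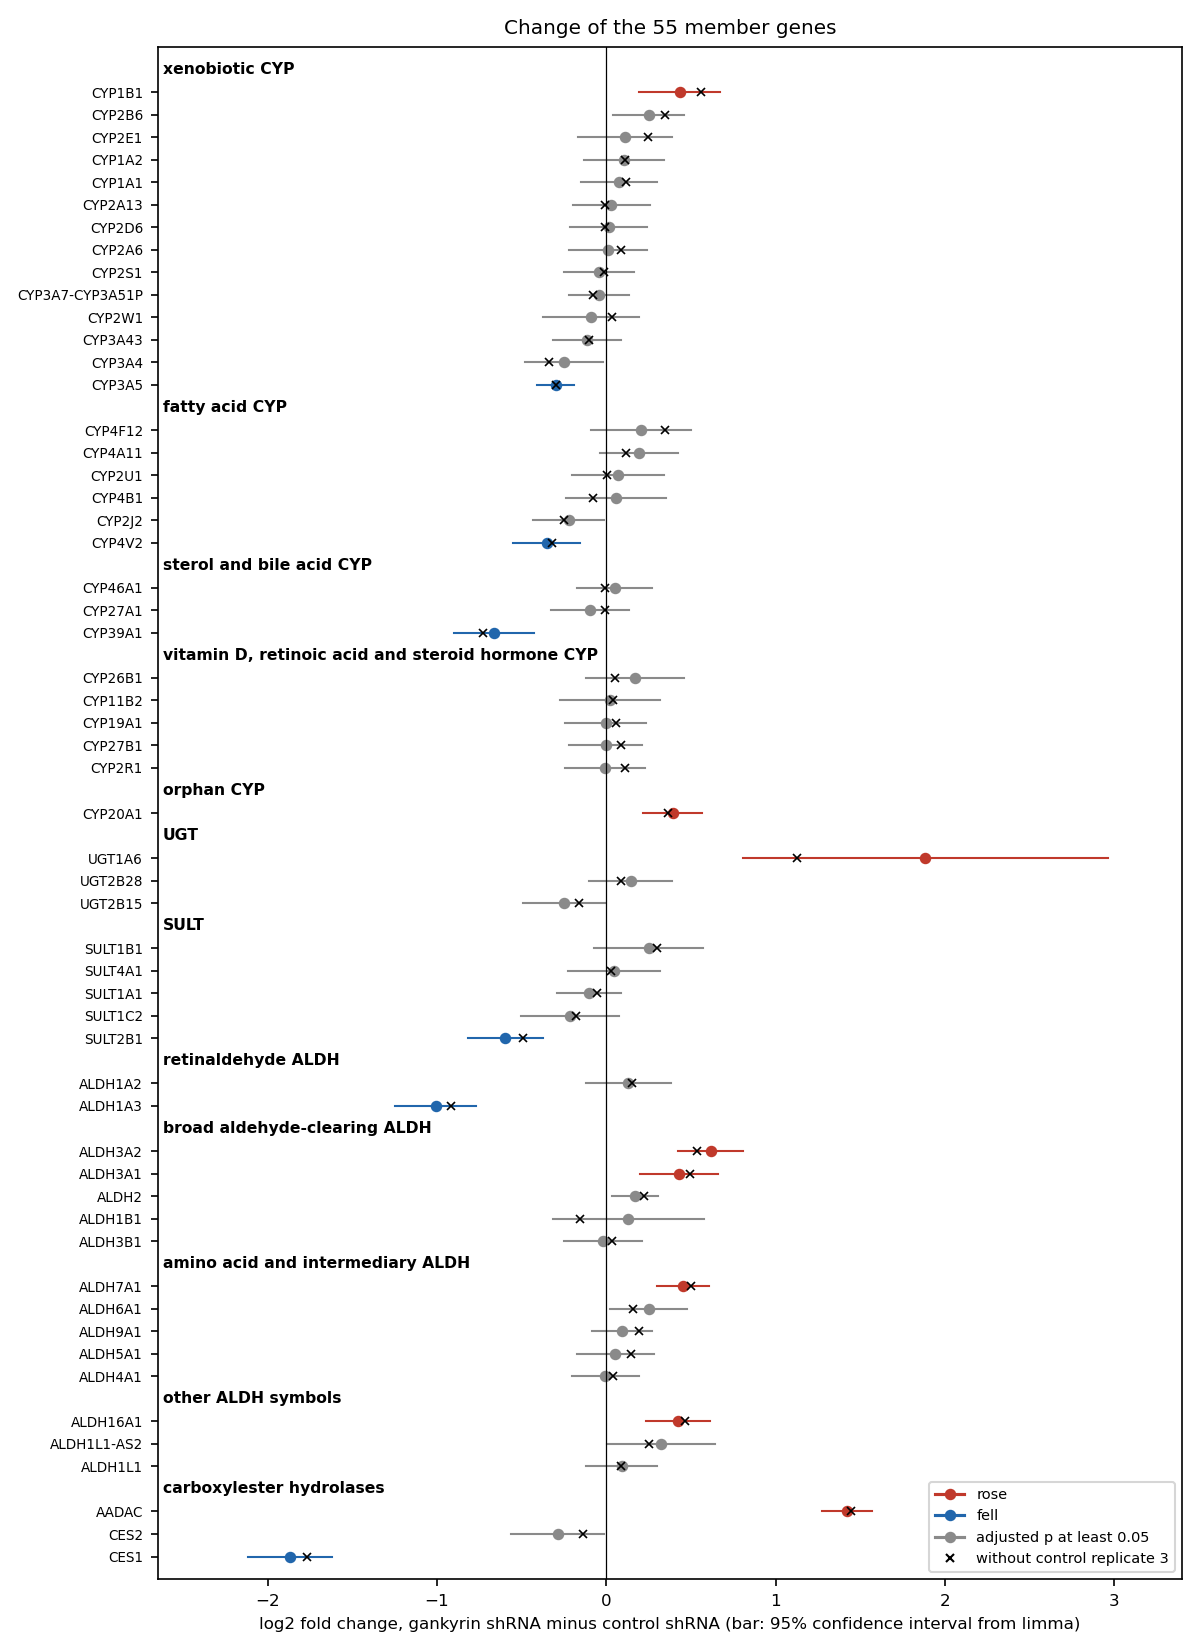
Log2 fold change (x axis, knockdown minus control) of all 55 genes by role, with 95% confidence intervals from limma, and crosses for the fold change without control replicate 3. Most genes lie within 0.3 of 0, AADAC, CES1, ALDH1A3 and UGT1A6 lie farthest out, and for UGT1A6 the cross, at 1.12, lies far from the point at 1.88.

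AADAC and CES1 changed in opposite directions, each by far more than the spread between arrays. AADAC, arylacetamide deacetylase, is an esterase of the endoplasmic reticulum membrane that hydrolyses drugs and neutral lipids. Its log2 signal was 8.06, 8.19 and 8.19 in control and 9.60, 9.61 and 9.50 in knockdown replicates 1 to 3. The groups were far apart and each was tight. AADAC rose 2.68-fold (log2 fold change 1.42 ± 0.07 SE, limma adjusted p = 2.26e-06). CES1, the main carboxylesterase of liver, was at 6.86, 7.03 and 7.25 in control and 5.20, 5.25 and 5.08 in knockdown arrays. The groups were again far apart, and CES1 fell 3.66-fold (-1.87 ± 0.11, adjusted p = 7.4e-06). CES2, the carboxylesterase that predominates in intestine, was at 6.55, 6.56 and 7.01 against 6.43, 6.44 and 6.39. Its groups did not overlap, but the high value was that of control replicate 3 and the difference did not pass (-0.29, 95% confidence interval -0.56 to -0.01, adjusted p = 0.125). Its other probe sets were at -0.03 and -0.02. AADAC and CES1 each rest on 1 probe set past the filter.

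Glucuronidation was represented by UGT1A6, which conjugates small planar phenols, and by UGT2B15 and UGT2B28, which act on steroids. UGT1A6 was at 7.93, 8.08 and 5.73 in control and 9.09, 9.19 and 9.11 in knockdown arrays. Every knockdown array exceeded every control array, and control replicate 3 was far below the other controls (2.28 below their mean). Over 6 arrays UGT1A6 rose 3.69-fold (1.88 ± 0.48, adjusted p = 0.0203), and without control replicate 3 the log2 fold change was 1.12 (adjusted p = 4.2e-09). The call was lost without any 1 of the knockdown arrays (adjusted p = 0.0678 to 0.0737), with a robust variance prior (0.150) and when every probe set was fitted on its own (0.0759). UGT2B15 was at -0.25 (95% confidence interval -0.49 to -0.01) and UGT2B28 at 0.14 (-0.10 to 0.39), both from control means below 4.48, and neither passed.

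The UGT1A genes lie in 1 locus, in which separate first exons are spliced to the same later exons. The annotation accordingly pairs 6 further probe sets past the filter with 5 to 9 UGT1A genes each, and these were fitted with all 32759 probe sets past the filter, of which 4.05% were higher and 6.54% lower at an adjusted p under 0.05. This fit was chosen after the data were seen. All 6 probe sets were higher on every knockdown array than on every control array. That held for 15.7% of all genes tested and was not counted over probe sets. The 6 are paired with overlapping sets of UGT1A genes and read on the same arrays, so they are not separate results. Of the 6, 5 rose. The tightest was at 10.53, 10.58 and 10.54 in control and 11.41, 11.45 and 11.40 in knockdown arrays, a 1.83-fold rise (0.87 ± 0.04, adjusted p = 0.000195). For the 4 of them in which control replicate 3 lay within 0.2 of the mean of the other controls, log2 fold changes were 0.82 to 0.91. The other 2, at 1.12 and 1.19, had control replicate 3 lower by 0.75 and 1.22. The second of these, on the probe set paired with 5 genes, missed the threshold (adjusted p = 0.0509). Without control replicate 3 all 6 lay between 0.79 and 0.88. Which UGT1A transcripts carry this rise cannot be read from shared probe sets.

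**Figure D3:**
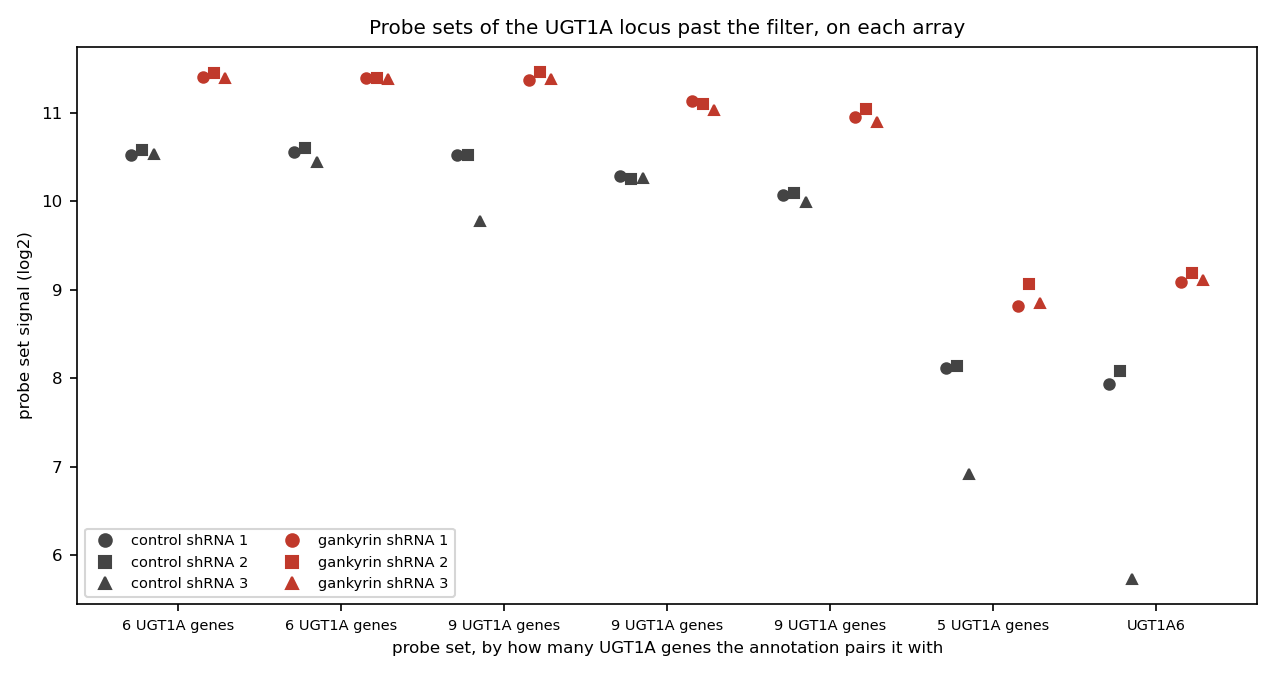
Log2 signal (y axis) on each array for the 7 UGT1A probe sets past the filter, the 6 paired with 5, 6 or 9 genes and that of UGT1A6 (x axis), in black for control and red for gankyrin shRNA. The red points lie above the black ones throughout, and the triangle of control replicate 3 lies far below the other controls on 3 of the probe sets.

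The DNA upstream of UGT1A6 is shown because UGT1A6 had the largest rise over 6 arrays; without control replicate 3 that of AADAC was larger (1.45 against 1.12). The RefSeq promoter table (GRCh38.p14) holds 2 UGT1A6 starts, both on the + strand of chromosome 2. The 250 bases before each, chr2:233691452-233691701 and chr2:233692640-233692889, were searched on both strands for TNGCGTG, a form of the xenobiotic response element bound by the AHR and ARNT pair, and for TGACNNNGC, the core of the antioxidant response element bound by NRF2. Capitals mark the matches, 1 in each window.
UGT1A6 upstream of the first start: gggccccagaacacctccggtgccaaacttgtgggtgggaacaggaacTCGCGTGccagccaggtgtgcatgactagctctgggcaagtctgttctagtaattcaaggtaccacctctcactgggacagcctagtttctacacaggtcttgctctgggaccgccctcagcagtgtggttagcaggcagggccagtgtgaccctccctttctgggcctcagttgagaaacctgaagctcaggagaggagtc
UGT1A6 upstream of the second start: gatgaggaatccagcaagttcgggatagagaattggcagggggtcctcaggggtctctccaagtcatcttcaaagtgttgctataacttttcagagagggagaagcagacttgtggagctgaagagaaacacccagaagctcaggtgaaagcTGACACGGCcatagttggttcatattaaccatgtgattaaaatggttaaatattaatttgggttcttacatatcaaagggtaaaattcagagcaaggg
The same letters occurred in genes that changed in either direction, as these windows of 10 bases on each side of the match show (CYP20A1 at chr2:203238969-203238995, + strand, with the motif on the opposite strand; SULT2B1 at chr19:48551941-48551967, + strand; CYP4V2 at chr4:186191452-186191480, + strand).
CYP20A1, rose: cccccgcccaCACGCTAtgccttaaat
SULT2B1, fell: cggaaggttcTGGCGTGggcttggcac
CYP4V2, fell: ccgacgccccTGACCCCGCatccggaggc
The table held 41 of the 55 genes, 5 of the 8 that rose and 5 of the 6 that fell. TNGCGTG was found for 4 of the 41, of which 2 rose and 1 fell, beside 5.54% of all 27305 genes in the table (4.52% of 35116 promoters). TGACNNNGC was also found for 4, of which 1 rose and 1 fell, beside 13.2% of genes (10.9% of promoters). A match describes these letters only; binding was not measured.

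Among 14 CYPs of the drug- and pollutant-oxidising families, 1 rose and 1 fell (14.3% called, beside 22.5% of all genes), with a median log2 fold change of 0.01. CYP1B1, which oxidises polycyclic hydrocarbons and estrogens, was at 7.02, 7.02 and 7.39 in control and 7.53, 7.55 and 7.65 in knockdown arrays. The groups were separate, with control replicate 3 nearest to the knockdown arrays. CYP1B1 rose 1.35-fold (0.43 ± 0.11, adjusted p = 0.0171), or by 0.56 without control replicate 3. All 4 CYP1B1 probe sets past the filter were higher on average in knockdown arrays, by 0.15 to 0.58. Leaving out control replicate 2 (adjusted p = 0.0598) ended the call, as did leaving out any 1 of the knockdown arrays (0.0545 to 0.0815) or fitting every probe set on its own (0.0552). CYP1A1 and CYP1A2, classical targets of the aryl hydrocarbon receptor, were at 0.07 (-0.15 to 0.30) and 0.10 (-0.13 to 0.34) and did not pass. CYP1A1 had means of 3.82 in control and 3.89 in knockdown arrays, below the 4.48 of the olfactory receptors, so any change in it is uncertain. A dimmer CYP1A2 probe set was at 0.28 and did not pass.

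CYP3A5, a CYP3A enzyme of intestine and liver that oxidises many drugs, was at 10.82, 10.78 and 10.80 in control and 10.44, 10.57 and 10.49 in knockdown arrays. Replicates were tight and the groups did not overlap. CYP3A5 fell 1.23-fold (-0.30 ± 0.05, adjusted p = 0.00219). A second CYP3A5 probe set fell by 0.54, another was at -0.16 and the dimmest at 0.26, and neither of the last pair passed. With the probe sets averaged the value was -0.18 and did not pass (adjusted p = 0.0744). CYP3A4, the principal drug-oxidising CYP of adult liver, was at 6.46, 6.38 and 6.15 against 6.16, 6.10 and 5.98, groups that overlapped. It did not pass over 6 arrays (-0.25, adjusted p = 0.116) and passed as lower without control replicate 3 (-0.34, adjusted p = 0.00697). Its 4 dimmer probe sets were between -0.11 and 0.07, and CYP3A4 was at -0.07 with its probe sets averaged (adjusted p = 0.631). CYP3A43 and CYP3A7-CYP3A51P, a readthrough transcript of CYP3A7, were at -0.11 and -0.04. CYP3A genes are close relatives, and probe sets ending in _x_at, used for CYP3A4, CYP3A43 and CYP3A7-CYP3A51P, can bind more than 1 of them.

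CYP2B6, which oxidises bupropion and cyclophosphamide, was at 7.71, 7.86 and 8.08 in control and 8.16, 8.16 and 8.08 in knockdown arrays. Control replicate 3 equalled the lowest knockdown array. CYP2B6 did not pass over 6 arrays (0.25, adjusted p = 0.0849), and passed as higher without that control (0.35, adjusted p = 0.000867). It also passed after quantile normalization (0.28, adjusted p = 0.0364), with its probe sets averaged (0.29, adjusted p = 0.0323) and with arrays centred on the median of the tested genes (0.35, adjusted p = 0.00468). CYP2A6, CYP2A13, CYP2D6, CYP2E1, CYP2S1 and CYP2W1 lay between -0.09 and 0.11. The median standard error over these 14 genes was 0.10, which bounds the differences in signal that could be seen. CYP1A1, CYP2A13, CYP2E1 and CYP2W1 had means of 3.61 to 3.98, below the 4.48 of the olfactory receptors. For them the size of any change is uncertain.

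Of the 6 CYPs of fatty acid metabolism, CYP4V2 passed the test over 6 arrays (16.7%, beside 22.5% of all genes). CYP4V2, a fatty acid omega-hydroxylase that is mutated in Bietti crystalline dystrophy of the retina, was at 6.25, 6.25 and 6.35 in control and 5.86, 6.03 and 5.90 in knockdown arrays. It fell 1.28-fold (-0.35 ± 0.09, adjusted p = 0.0186), and a second probe set fell by 0.55 while another was at 0.00. The call was lost without knockdown replicate 1 (adjusted p = 0.0862) or 3 (0.0774). CYP4F12 was at 0.20 (adjusted p = 0.313), with control values of 4.26, 4.42 and 4.77 that overlapped the knockdown values of 4.59, 4.76 and 4.71, and passed as higher without control replicate 3 (0.35, adjusted p = 0.0301). CYP2J2, an epoxygenase of arachidonic acid, was at -0.22 (-0.43 to -0.01, adjusted p = 0.118), and CYP2U1, CYP4A11 and CYP4B1 were between 0.06 and 0.19.

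In bile acid and sterol metabolism CYP39A1 fell. This enzyme hydroxylates 24-hydroxycholesterol on the way to bile acids. Control arrays read 6.42, 6.66 and 6.34 and knockdown arrays 5.81, 5.91 and 5.71, with no overlap. The fall was 1.58-fold (-0.66 ± 0.11, adjusted p = 0.00216), another probe set fell by 0.89, and a dimmer one was at -0.09. CYP46A1, which makes 24-hydroxycholesterol, lay near the low end of the scale at 3.63 and 3.68. CYP27A1, which starts the acidic bile acid pathway, was at -0.10 (-0.33 to 0.14). None of the 5 CYPs of vitamin D, retinoic acid and steroid hormones passed in limma, beside 22.5% of all genes called. In that test 0 of them had an unadjusted p under 0.05. With so few genes, this count is not a result about them. The vitamin D 25-hydroxylase CYP2R1 was at -0.01 (-0.25 to 0.23), the activating 1-alpha-hydroxylase CYP27B1 at 0.00 (-0.22 to 0.21) and the retinoic acid hydroxylase CYP26B1 at 0.17 (-0.12 to 0.46). Aromatase CYP19A1 and aldosterone synthase CYP11B2 were at 0.00 and 0.02, from means below the 4.48 of the olfactory receptors. CYP26B1 also had means below that level, 3.85 in control and 4.01 in knockdown arrays. A dimmer CYP26B1 probe set, below the limit of 3.6 and not tested, was at -0.63. CYP20A1, a CYP of unsettled substrate, was at 6.48, 6.46 and 6.38 in control and 6.83, 6.83 and 6.84 in knockdown arrays and rose 1.31-fold (0.39 ± 0.08, adjusted p = 0.00614).

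Of the 5 sulfotransferases, SULT2B1 passed the limma test (20%, beside 22.5% of all genes) and was the only 1 with an unadjusted p under 0.05. SULT2B1 sulfates cholesterol and pregnenolone in barrier epithelia. It was at 6.71, 6.72 and 7.02 in control and 6.22, 6.23 and 6.21 in knockdown arrays. Knockdown values were all but identical, and control replicate 3 was the highest control. SULT2B1 fell 1.51-fold (-0.60 ± 0.10, adjusted p = 0.00267), or by 0.49 without that control. SULT1A1, the main phenol sulfotransferase, was at -0.10 (-0.29 to 0.09), and SULT1B1, SULT1C2 and SULT4A1 were at 0.25, -0.22 and 0.04 from control means of at most 4.03.

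Among the 15 ALDH symbols 4 rose (26.7%, beside 8.13% of all genes) and 1 fell (6.67%, beside 14.3%), with a median log2 fold change of 0.13. ALDH3A2, the fatty aldehyde dehydrogenase whose loss causes Sjögren-Larsson syndrome, was at 7.91, 7.99 and 7.71 in control and 8.39, 8.52 and 8.55 in knockdown arrays. It rose 1.53-fold (0.62 ± 0.09, adjusted p = 0.0011). A second ALDH3A2 probe set rose by 0.32. Another, at 6.96, 6.98 and 5.71 against 7.39, 7.41 and 7.26, did not pass, and there too control replicate 3 lay far below the other controls. ALDH3A1, a stress-responsive aldehyde dehydrogenase of cornea and some tumours, was at 3.69, 3.71 and 3.90 against 4.25, 4.23 and 4.10. Its values in both groups lay below the 4.48 of the olfactory receptors, so the size of its change (0.43 ± 0.10, adjusted p = 0.0158) is uncertain. Its call was lost when control replicate 2 (adjusted p = 0.0512), knockdown replicate 1 (0.0650) or knockdown replicate 2 (0.0599) was left out.

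ALDH7A1, antiquitin, which acts in lysine breakdown, was at 8.39, 8.42 and 8.54 in control and 8.87, 8.98 and 8.86 in knockdown arrays. The groups were separate on both ALDH7A1 probe sets past the filter, which rose by 0.45 ± 0.07 (adjusted p = 0.00163) and 0.62. ALDH16A1, a family member that lacks the catalytic cysteine in mammals, was at 6.60, 6.64 and 6.75 against 7.12, 7.15 and 6.99 and rose 1.34-fold (0.42 ± 0.08, adjusted p = 0.00639). ALDH2, the mitochondrial enzyme that clears acetaldehyde, was at 9.42, 9.40 and 9.56 against 9.68, 9.61 and 9.60. These groups did not overlap, but ALDH2 missed the threshold (0.17, 95% confidence interval 0.03 to 0.31, adjusted p = 0.0730) and passed as higher without control replicate 3 (0.22, adjusted p = 0.00317). ALDH9A1, which acts in carnitine synthesis, was at 9.99, 10.04 and 10.32 against 10.20, 10.20 and 10.23. It did not pass (0.09, adjusted p = 0.444) and passed as higher without control replicate 3, the highest of the 6 arrays (0.20, adjusted p = 0.00362). Centring on the median of the tested genes also brought both past the threshold, ALDH2 at 0.27 (adjusted p = 0.00390) and ALDH9A1 at 0.19 (0.0348).

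The fall among the ALDHs was that of ALDH1A3, which makes retinoic acid from retinaldehyde. It was at 5.56, 5.49 and 5.80 in control and 4.55, 4.59 and 4.69 in knockdown arrays. The groups did not overlap, and ALDH1A3 fell 2.01-fold (-1.01 ± 0.11, adjusted p = 0.000236) to near the low end of the scale. This call rests on 1 probe set past the filter. A dimmer ALDH1A3 probe set, below the limit and not tested, was at 0.34. ALDH1A2, another retinaldehyde dehydrogenase, was at 3.83 and 3.96 and did not pass, and ALDH1A1 was below the limit of 3.6. ALDH6A1 of valine breakdown was at 0.25 (0.02 to 0.48, adjusted p = 0.107), and ALDH4A1 of proline and ALDH5A1 of GABA breakdown were at -0.01 (-0.21 to 0.19) and 0.05 (-0.17 to 0.28). ALDH1B1, at 6.33, 6.47 and 5.54 against 6.23, 6.29 and 6.21, moved from 0.13 to -0.16 without control replicate 3 and passed in neither fit. ALDH3B1, ALDH1L1 and the antisense RNA ALDH1L1-AS2 were at -0.02, 0.09 and 0.32.

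The enzymes that feed these reactions and the proteins that regulate and complement them were taken as 5 lists of 137 genes, of which 102 passed the filter. Of these 18 rose (17.6%, beside 8.13% of all genes) and 11 fell (10.8%, beside 14.3%). The rises numbered 27 without control replicate 3 (beside 12.7% of all genes) and 34 with arrays centred on the median of the tested genes (beside 16.0%). Without knockdown replicate 1, 2 and 3 they numbered 8, 9 and 11, beside 4.44%, 4.32% and 4.66% of all genes. The falls without those knockdown arrays numbered 5, 5 and 6, beside 7.78%, 7.96% and 7.54%. Electron donors and suppliers of co-substrates had 5 rises (27.8%, beside 8.13% of all genes) and 1 fall (5.56%, beside 14.3%) among 18 genes and a median of 0.11. PAPSS2, which makes the sulfate donor PAPS, went from 10.49 ± 0.07 to 11.07 ± 0.07 (SD, n = 3 each) and rose by 0.59 ± 0.05 (adjusted p = 0.000104). CYB5A, the cytochrome b5 that passes electrons to CYPs, rose by 0.40 ± 0.06. FECH, which completes heme, rose by 0.50 ± 0.09 and did not pass with its probe sets averaged (0.20, adjusted p = 0.0648) or with cross-hybridising types of probe set avoided (0.17, adjusted p = 0.390). POR, the NADPH reductase that serves all microsomal CYPs, was at -0.11 and UGDH, which makes the UGT co-substrate, at 0.04, and neither passed.

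Other conjugating and deconjugating enzymes had 7 rises (25.9%, beside 8.13% of all genes) and 1 fall (3.70%, beside 14.3%) among 27, with a median of 0.16. The microsomal glutathione transferase MGST1 rose by 0.34 ± 0.05, the histamine methyltransferase HNMT by 0.41 ± 0.06 and the glutathione transferase GSTA4, which acts on lipid aldehydes, by 0.35 ± 0.07. MGST1 was at 0.03 with those types avoided (adjusted p = 0.878), and GSTA4 did not pass with its probe sets averaged (0.21, adjusted p = 0.175). Other oxidising, reducing and hydrolysing enzymes had 4 rises (18.2%) and 1 fall (4.55%) among 22 and a median of 0.08. In either direction 22.7% of them were called, beside 22.5% of all genes. The monoamine oxidase MAOB went from 6.81 ± 0.10 to 7.80 ± 0.13 and rose by 0.99 ± 0.09 (adjusted p = 9.87e-05). CBR4, a mitochondrial carbonyl reductase, rose by 0.31 ± 0.07, a call lost with its probe sets averaged (0.09, adjusted p = 0.449) and without knockdown replicate 1 (0.0803) or 2 (0.0562). NCEH1, a cholesterol ester hydrolase related to AADAC, fell by 0.57 on the log2 scale, the opposite direction to AADAC.

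Receptors and regulators had 2 rises (9.52%, beside 8.13% of all genes) and 5 falls (23.8%, beside 14.3%) among 21, with a median of -0.11. PPARA, a fatty acid receptor that induces CYP4A genes, went from 6.76 ± 0.26 to 5.79 ± 0.19 and fell by 0.96 on the log2 scale (SE 0.14, adjusted p = 0.00137), or by 0.54 with its probe sets averaged (adjusted p = 0.00223). NR5A2, a bile acid pathway regulator, fell by 0.81 (SE 0.11) and did not pass with its probe sets averaged (adjusted p = 0.0950). NFE2L2, which encodes NRF2, rose by 0.28 ± 0.05 and did not pass with its probe sets averaged (0.32, adjusted p = 0.181). AHR itself, named here after its value was seen, went from 8.23 ± 0.04 to 7.99 ± 0.06 and fell by 0.24 (adjusted p = 0.0301); as background, it is the receptor through which CYP1A1, CYP1B1 and UGT1A6 are induced by pollutants. Drug transporters had 3 falls and 0 rises among 14 in limma (2 higher and 4 lower at an unadjusted p under 0.05). These calls were 21.4% of the list, beside 22.5% of all genes in either direction. Without control replicate 3 there were 1 rise and 3 falls, beside 12.7% and 16.6% of all genes. SLCO4A1, an organic anion uptake carrier, fell by 0.72 (adjusted p = 0.000129), the carnitine carrier SLC22A5 by 0.45 and the efflux pump ABCC1 by 0.31. The SLC22A5 and ABCC1 calls were lost without any 1 of the knockdown arrays and with every probe set fitted on its own (adjusted p = 0.0518 and 0.0517). With its probe sets averaged SLC22A5 was at -0.23 (adjusted p = 0.111).

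**Figure D4:**
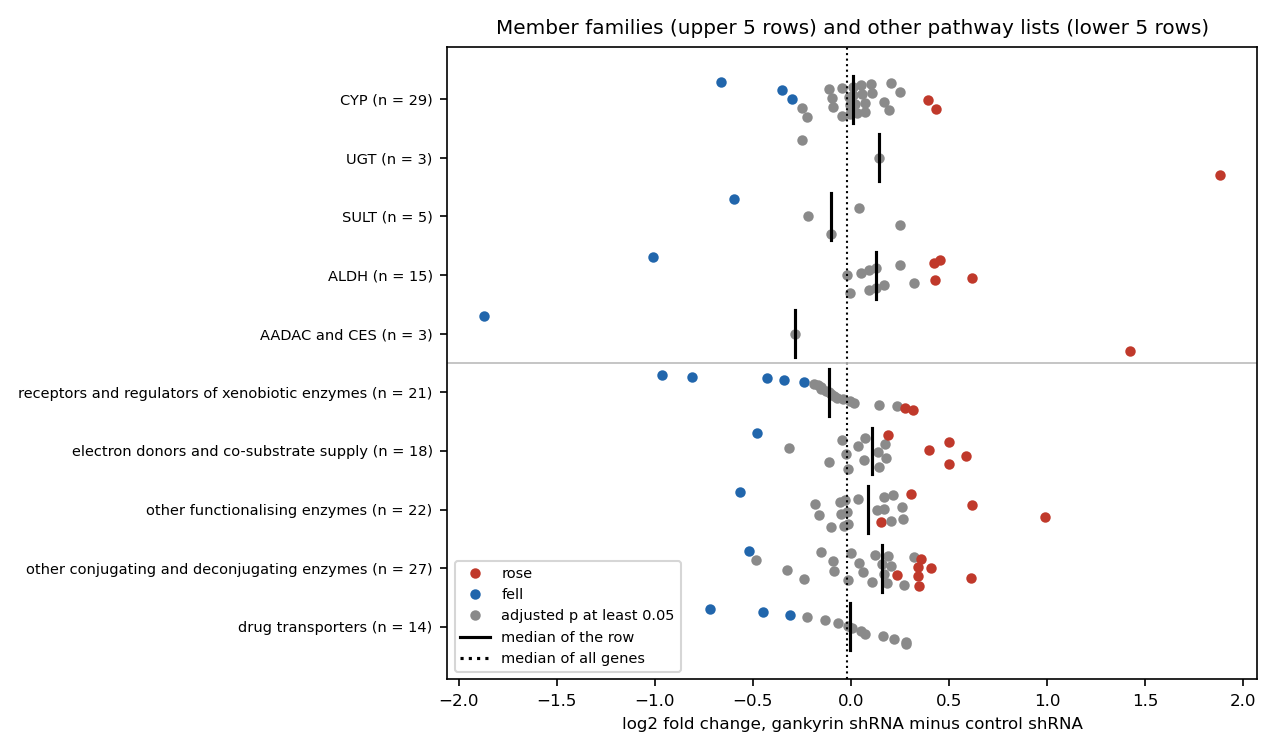
Log2 fold change (x axis, knockdown minus control) of each gene by family (upper 5 rows) and by pathway list (lower 5 rows), with red for genes that rose, blue for genes that fell, a bar for the median of the row and a dotted line for the median of all genes at -0.02. Vertical position within a row carries no value. Every row holds values on both sides of 0. Of the 14 drug transporters and the 5 sulfotransferases 0 were called higher, beside 8.13% of all genes. Of the 3 UGT genes 0 were called lower, beside 14.3% of all genes. With so few genes in a row, these counts are not a result about it.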

How the data were processed

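Log2 probe set signals of 6 arrays were used as the authors deposited them; per the submitters' processing notes MAS5 was used, with no version or role stated there. The 54675 probe sets were matched to genes through the platform annotation (41091 with 1 gene, 1801 with several, 11721 with none, 62 control), and symbols were updated through RefSeq. The lowest 40% of probe sets by mean signal were left out (limit 3.6). The brightest single-gene probe set stood for each gene, giving 14199 genes. limma 3.58.1 (lmFit, eBayes with an intensity trend, R 4.3.3) compared 3 knockdown with 3 control arrays, and p-values were adjusted by Benjamini-Hochberg over the 14199 genes (threshold 0.05). The fit was tested on simulated data with far fewer changed genes than were called here, so its shares need not hold for the arrays. It recovered 7 of 50 log2 changes of 0.3, 30 of 50 of 0.5, 47 of 50 of 1 and 50 of 50 of 2. Log2 fold changes are knockdown minus control; errors are SE in fits and SD between arrays. The number of arrays limits the precision.

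The genes, lists and tests were chosen with earlier results of these data known. Named on each array are genes past the threshold with 6 arrays or without control replicate 3, and the gene of smallest p in a family with none (CES2 and ALDH1B1 fall outside this rule and were chosen after their values were seen); in each pathway list, up to 3 called genes of smallest p. Exact permutation tests used scipy 1.17.1. Alternatives covered scaling, filter, choice of probe set, variance prior, replicate block and leaving out each array. CES3 was not analysed here.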

Additional observations from a re-analysis of the deposited data

How the results depend on the processing

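Among the 14 called genes, AADAC, CES1, ALDH1A3, ALDH3A2, ALDH7A1, ALDH16A1, CYP20A1, CYP39A1 and SULT2B1 kept direction and call under every alternative run for them. AADAC, CES1, ALDH1A3, ALDH16A1, CYP20A1 and SULT2B1 have 1 probe set past the filter, so averaging or avoiding probe sets could not change their values. Avoiding probe sets ending in _x_at or _s_at also left ALDH3A2 and CYP39A1 on the same probe set. In these cases the settings lend the calls no support. The calls lost for the other 5 genes are given where those genes are described. Leaving out 1 array at a time gave 1732 to 4161 called genes (3189 with all arrays), 5 to 12 higher and 5 to 7 lower among the 55, and 8 to 27 higher and 5 to 13 lower among the 102 pathway genes. Those fits called 4.32% to 12.7% of all genes higher and 7.54% to 16.6% lower. CYP3A4 reversed to 0.073 (limma adjusted p = 0.788) with probe sets ending in _x_at or _s_at avoided. Rises made up 36.2% of calls over all genes, 30.5% with arrays centred on their median, 40.9% after quantile normalization and 60.7% with arrays centred on the median of the tested genes, a scaling chosen after seeing the data that gave 34 pathway genes higher. The labels do not say whether the replicate numbers pair the samples. Deviations from the group mean were nearly uncorrelated between arrays of the same number (0.02, 0.11 and -0.01), which with 3 arrays a group does not settle it. With the replicate block 8 of the 55 genes were higher and 6 lower, and 3049 genes were called in all. Leaving out the lowest 60% of probe sets leaves 33 of the 55 genes. Genes near the low end of the scale limit what could be seen: 19 of the 55 had means at or below 4.48.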

Other observations

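The 32 genes below the limit include CYP24A1 and CYP26A1, which break down vitamin D and retinoic acid, CYP7A1, which starts bile acid synthesis, CYP2C8, UGT2B17 and SULT1E1. Their differences, which were not tested, ranged from -0.31 for ALDH8A1 to 0.36 for ALDH3B2. Outside the UGT1A locus, 10 probe sets past the filter were paired with several genes of these families. Their log2 fold changes were between -0.33 and 0.36, and 1 of them, paired with CYP3A7 and its readthrough, was higher at an adjusted p of 0.0393 in limma over all probe sets. In that fit 4.05% of all probe sets were higher. Its means were 3.73 in control and 4.09 in knockdown arrays, both below the 4.48 of the olfactory receptors. Another probe set paired with the same genes was at -0.05 (adjusted p = 0.801).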
